A study of Mus musculus with 8 samples.

Results

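Opposite-strand transcripts are RNAs annotated on the strand opposite a gene whose name they carry with the ending "os", such as Notumos beside Notum. The members here are the rows of the expression table whose symbol ends in os, with or without a final digit, and whose remaining stem is also a symbol of the table. They number 118 of 19950 genes and belong to 112 distinct sense genes, since 5 sense genes have more than 1 such transcript. Another 21 symbols of that form were left out because their stem is not in the table.

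The transcripts were measured by bulk RNA sequencing of whole mouse embryos at embryonic day 6.5, the onset of gastrulation, in 4 embryos labelled Axin1;Axin2 mutant and 4 labelled WT. The labels give genotype as the only difference and do not state the alleles, the litters or whether any embryo was a littermate of another. Axin1 and Axin2 are scaffolds of the complex that destroys β-catenin, and the study asks how their loss alters WNT signalling and mesoderm formation. Replicates are numbered 1, 2, 4 and 5 within each genotype, as in the data columns.

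Genes are often flanked or overlapped by transcription from the other strand. At many developmental regulators a second RNA starts close to the promoter and runs away from the gene (divergent), and elsewhere 2 genes meet at their 3′ ends (convergent) or one lies inside the other. Such RNAs are mostly noncoding. An RNA and its neighbour can share a promoter or a chromatin domain, and in the mouse limb Hoxa11 and its antisense RNA are made in separate regions. The libraries kept no strand, so reads falling in exons shared by both members of a pair cannot be told apart. The share of such bases is given for some of the named pairs, and where it is not given, exon bases may still be shared. The sources do not say whether reads in shared exons were counted for either gene or dropped.

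All 118 pairs lay on opposite strands of the same chromosome in GENCODE M21 (GRCm38). By annotation 89 transcripts were antisense, 9 protein-coding, 9 processed transcripts, 8 lincRNAs, 2 bidirectional-promoter lncRNAs and 1 a unitary pseudogene. In 45 pairs the 5′ ends overlapped, 33 transcripts lay inside the sense gene, 20 were divergent without overlap, 11 pairs overlapped at their 3′ ends, 6 were convergent without overlap and 3 transcripts spanned the whole sense gene. Exon bases were shared in 75 pairs and in 43 pairs there were none. In 6 transcripts at least 50% of the exon bases lay in exons of the sense gene. The 2 starts were within 500 bases of each other in 33 pairs.

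**Figure D1:**
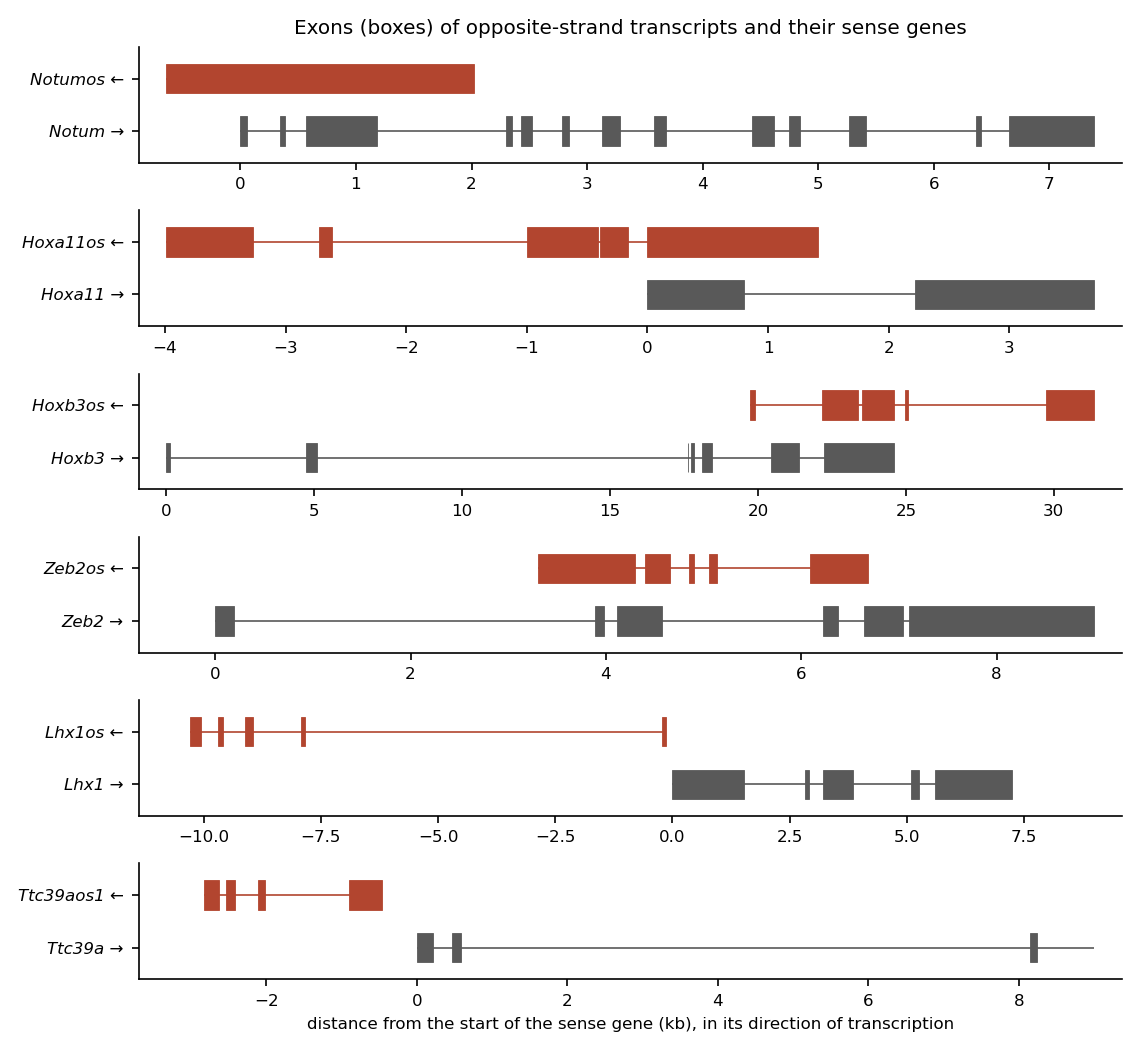
Exons (boxes) and introns (lines) of 6 opposite-strand transcripts, upper red rows, and of their sense genes, lower grey rows, by distance in kb from the start of the sense gene in its direction of transcription; Zeb2 and Ttc39a continue past the right edge. Arrows give the direction of transcription. Notumos and Hoxa11os cover the first exons of their genes, Hoxb3os overlaps the 3′ end of Hoxb3, Zeb2os lies inside Zeb2, and Lhx1os and Ttc39aos1 share no exon base with their genes.

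Sequence is shown for 3 divergent pairs, because their starts lie within 200 bases of each other and yet Lhx1os and Cep83os did not follow their sense genes, whereas Wt1os and Wt1 were both highest in the same embryos (values below). Each is the 300 bases from 250 before to 50 after the first base of the transcript, from RefSeq on GRCm38.p6, written 5′ to 3′ on the transcript's strand. Capitals mark the bases from one start to the other, both included. The windows are chr11:84525410-84525709 on the plus strand for Lhx1os, chr10:94688564-94688863 on the minus strand for Cep83os and chr2:105126461-105126760 on the minus strand for Wt1os; the start of Wt1 was taken from GENCODE M21.
Lhx1os: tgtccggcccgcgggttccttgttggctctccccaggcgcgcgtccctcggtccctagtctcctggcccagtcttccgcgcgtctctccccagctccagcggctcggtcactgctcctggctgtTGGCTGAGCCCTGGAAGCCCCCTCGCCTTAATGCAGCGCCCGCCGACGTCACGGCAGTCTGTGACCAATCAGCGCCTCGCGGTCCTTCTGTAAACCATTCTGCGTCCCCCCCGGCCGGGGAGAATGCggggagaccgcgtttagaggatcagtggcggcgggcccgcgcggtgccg
Cep83os: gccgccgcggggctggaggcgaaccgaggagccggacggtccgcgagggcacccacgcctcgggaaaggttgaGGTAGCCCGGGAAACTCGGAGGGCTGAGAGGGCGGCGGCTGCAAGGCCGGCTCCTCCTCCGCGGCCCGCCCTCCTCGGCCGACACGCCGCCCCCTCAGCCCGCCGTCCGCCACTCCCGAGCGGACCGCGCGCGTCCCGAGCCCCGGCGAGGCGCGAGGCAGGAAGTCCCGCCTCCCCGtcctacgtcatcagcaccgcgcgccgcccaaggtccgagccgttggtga
Wt1os: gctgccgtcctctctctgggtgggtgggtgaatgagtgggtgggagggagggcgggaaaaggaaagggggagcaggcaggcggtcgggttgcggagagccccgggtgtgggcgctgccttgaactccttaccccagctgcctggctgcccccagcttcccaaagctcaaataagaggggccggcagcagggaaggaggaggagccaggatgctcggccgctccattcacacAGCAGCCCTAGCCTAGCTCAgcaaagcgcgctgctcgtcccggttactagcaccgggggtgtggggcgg
The capitals span 127 bases at Lhx1os, 178 at Cep83os and 20 at Wt1os. GC content was 69.3% with 33 CpG in the Lhx1os window, 76.7% with 46 CpG in the Cep83os window and 66.7% with 16 CpG in the Wt1os window. Windows in RefSeq were found for 70 of the transcripts (93 windows) and 85 of the sense genes (119 windows). Their median GC was 55.0% with 9 CpG for the transcripts and 59.7% with 19 CpG for the sense genes, against 52.7% with 7 CpG over all 32851 windows. The TCF/LEF motif CTTTGAT, the site bound by the factors that carry canonical WNT signalling to DNA, was searched on both strands. It was present in 1 of the 93 transcript windows and in 1 of the 119 sense windows, whereas 3.73% of all windows hold it.

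Reads assigned to genes numbered 27242668 to 34271604 in mutants, against 26615732 to 36778164 in WT. Values are gene counts divided by the authors' size factor (scaled counts), with 1 read worth 0.866 to 1.18 scaled counts. Axin1 was lower in mutants (1996 against 4565 scaled counts, log2 fold change -1.16, adjusted p = 0.00269, limma) and Axin2 did not pass (log2 difference 0.44, adjusted p = 0.190). The 9 markers of maternal decidua summed to 5383.5 to 44924.8 scaled counts in mutants, against 548.1 to 2202.7 in WT. Mutant replicates 4 and 5 held the highest sums, 5 of the 9 markers passed the test as higher, and Lum was at 0 in mutant replicate 1 and in all WT libraries. Most of the sum in mutants 1 and 2 came from Des and Col1a1. Prl8a2 was at 135 and 479 scaled counts in mutants 1 and 2, against 1129 and 793 in WT 1 and 2. Dcn in mutant 2, at 8.29, was below every WT library. WT replicate 2 was the lowest WT library in 5 of 6 streak and mesoderm markers, with 130 scaled counts of T, where the other WT embryos had 846 to 1133. Its Eomes was 6221, where the others had 6797 to 8707, and its Hand1 was the highest in WT, at 5301 where the others had 1592 to 2681. The 5 epiblast markers summed to 5626 to 9767 scaled counts in mutants, against 34455 to 37757 in WT. Y-linked genes were present in all 4 mutants and in WT replicates 1 and 4 but near 0 in WT replicates 2 and 5. The sources do not say that embryos of a genotype came from separate litters, so each p-value reflects only how far these 8 embryos scatter. These are bulk samples, in which fewer cells of a type and less RNA per cell cannot be told apart.

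Most opposite-strand transcripts were rare. Their median level over all libraries was 10.2 scaled counts, against 902 for the sense genes, and per kilobase of exon the median transcript stood at 5.54% of its sense gene. In 13 pairs the transcript exceeded its sense gene per kilobase, Chd3os, Brip1os, Epb41l4aos and Dnah2os among them. A gene was tested when 4 or more libraries held a scaled count of 10 or above, which 57 transcripts and 106 sense genes reached.

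Of the 57 tested transcripts 9 were higher in mutants and 1 was lower at an adjusted p of 0.05, or 17.5%, beside 15.6% of all 15600 genes tested. The share of all genes was 8.03% higher and 7.55% lower. The 9 that rose were Notumos, Hoxa11os, Hoxb3os, Hoxd3os1, Zeb2os, Dnah2os, Tbx3os2, Ttc39aos1 and Cep83os, and the 1 that fell was Pcsk2os1. Of the 9, 5 reached the filter only through mutant libraries, namely Notumos, Hoxb3os, Hoxd3os1, Zeb2os and Ttc39aos1, so for these a difference was built into the selection. The same holds for the sense genes Hoxb3 and Hoxb5, and for Atcay, which reached it only through WT libraries. The median log2 fold change was 0.12 for the 57 transcripts, 0.06 for the 106 sense genes and -0.00 for all genes tested. The 4 mutant values lay wholly above the 4 WT values in 12 tested transcripts and wholly below in 3, whereas 11.2% of all genes did each. Of the sense genes 19 were higher and 6 lower, or 23.6%. When each library was centred on its median, 39.3% of the calls over all genes were higher, against 51.5% without centring, and 7 transcripts were higher with 1 lower.

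In 54 pairs both members were tested. Both rose in 6, both fell in 1 and in no pair did they pass in opposite directions. The transcript alone passed in 2 pairs, the sense gene alone in 7 and neither in 38. Signs of the 2 fold changes matched in 29 of the 54. Among 4117 other annotated opposite-strand pairs, 99 had both genes past the threshold and in 71 of these (71.7%) the direction was the same. The difference between the fold changes of the pair, tested within libraries as the transcript to sense ratio, passed in 7 of the 54 member pairs, beside 11.3% of 4171 opposite-strand pairs. The plot of pair changes shows both groups.

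**Figure D2:**
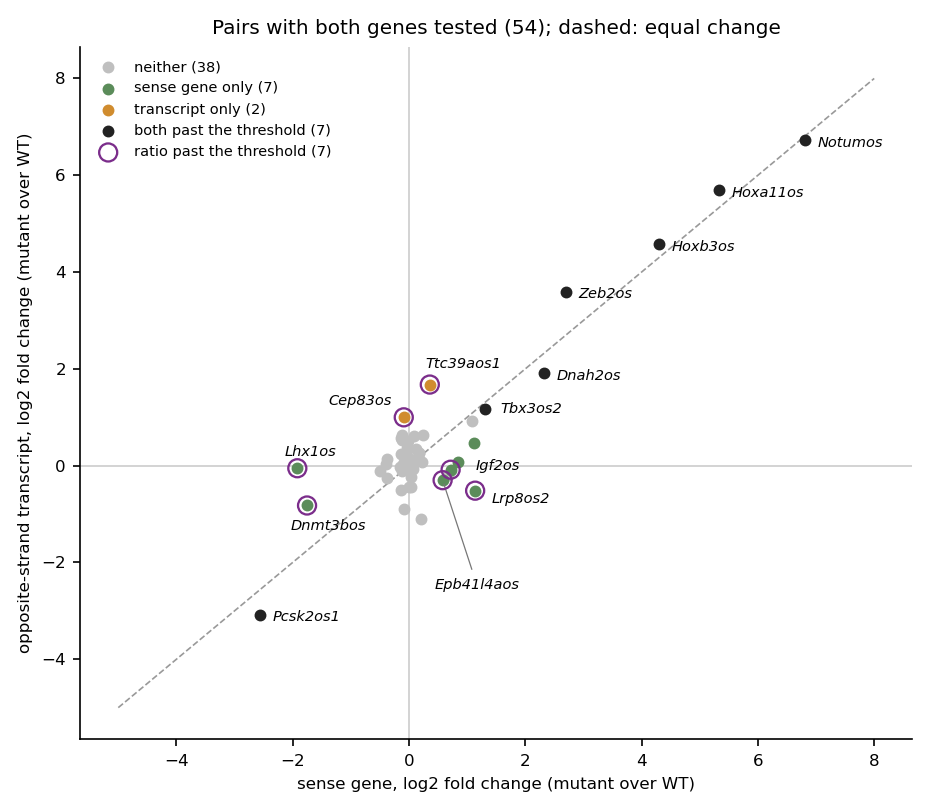
Each point is 1 of 54 pairs, by the log2 fold change of the sense gene (horizontal) and of the opposite-strand transcript (vertical), mutant over WT on log2(scaled count + 1). The 7 pairs with both members past the threshold run close to the dashed line of equal change, with Notumos at 6.72 and Pcsk2os1 at -3.08, and the 7 ringed pairs are those whose ratio passed.

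Notumos accompanied Notum, a secreted deacylase that inactivates WNT proteins and is itself switched on by WNT signalling. Notumos is a 2659-base transcript at chr11:120659157-120661815 on the plus strand. It starts inside Notum (chr11:120653788-120661175, minus strand), and its 3′ part covers the start of Notum. Notumos had 586, 409, 209 and 223 scaled counts in mutant replicates 1, 2, 4 and 5, against 2.78, 0, 4.33 and 3.55 in WT replicates 1, 2, 4 and 5. The groups were far apart and mutants 1 and 2 were the highest. Notum had 5737, 3226, 1548 and 1909.8 scaled counts in the mutants, against 23.2, 11.4, 22.5 and 47.4 in WT, with the mutants in the same order. Notumos rose by 6.72 on the log2 scale (SE 0.58, adjusted p = 0.000171, limma), 357 ± 178 against 2.67 ± 1.89 scaled counts (SD, n = 4 each). Notum rose by 6.82 (SE 0.48, adjusted p = 7.65e-05). The log2 ratio of Notumos to Notum differed by -0.10 (SE 0.40, adjusted p = 0.910), so no difference in their change was detectable, although with a pseudocount of 5 in place of 1 it was -1.11 (adjusted p = 0.0412). The pair shares 708 exon bases, 26.6% of Notumos and 29.4% of Notum. If Notum reads lay evenly along its exons, those bases would carry 913 scaled counts in mutants and 7.68 in WT, more than the Notumos values. The sources do not say whether reads there were counted for Notumos, counted for Notum or dropped.

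**Figure D3:**
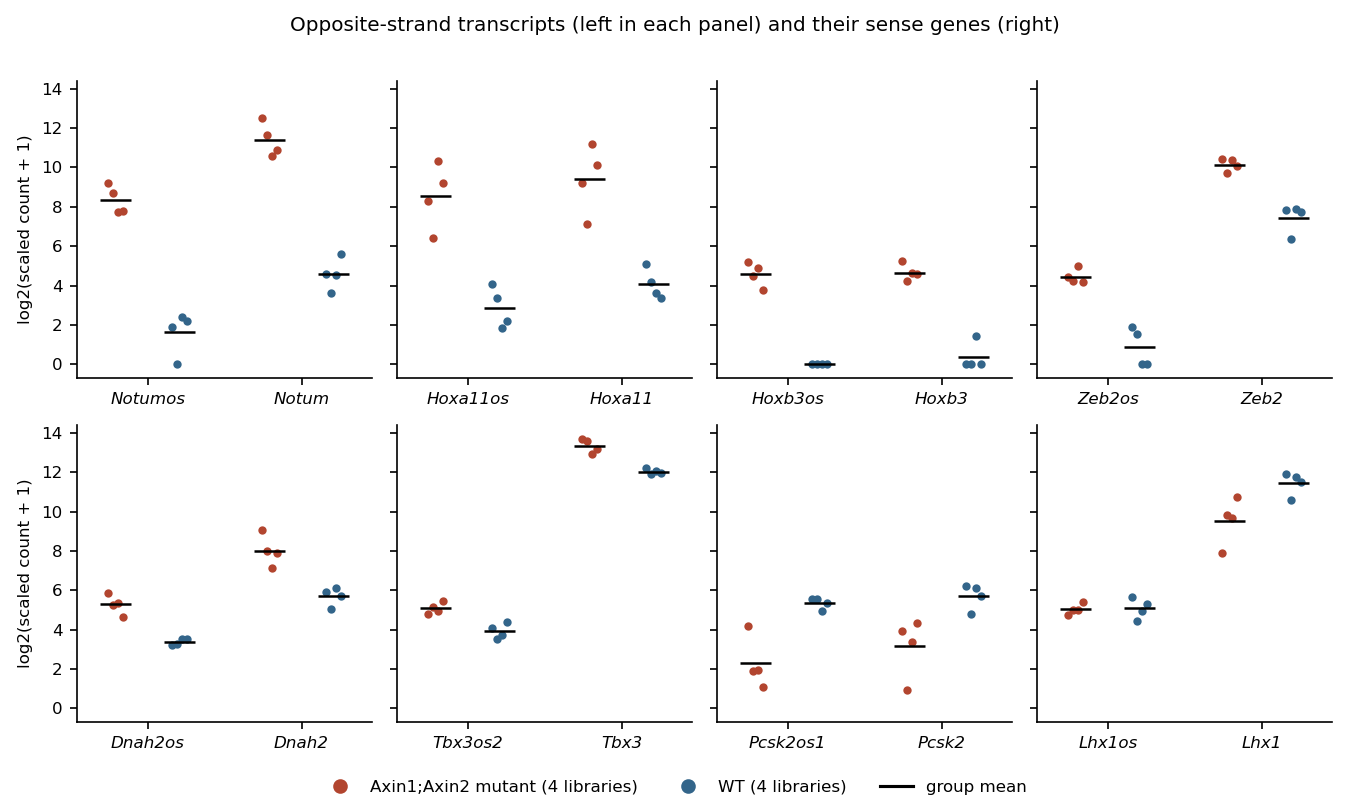
Level in each library, as log2(scaled count + 1), of 8 transcripts (left in each panel) and their sense genes (right), with mutant libraries in red left of WT libraries in blue and bars at the group means (n = 4 each). In 7 panels both members shift the same way and in the Lhx1 panel only the sense gene shifts, with Lhx1os at 25.9 to 41.1 scaled counts in mutants and 20.8 to 50.1 in WT.

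Hox genes are the clustered homeobox factors that set position along the body axis, and 4 pairs belong to them. Hoxa11os, Hoxb3os, Hoxb5os, Hoxd3os1 and their sense genes lay above WT in every mutant, without overlap. Hoxb3os (chr11:96343072-96354691, minus strand) had 35.6, 21.2, 28.2 and 12.6 scaled counts in mutants 1, 2, 4 and 5, against 0 in each WT library. With 97 reads against none, it was at least 33.8-fold higher, taking 3 reads over the WT group as the floor (adjusted p = 0.000337, limma). Hoxb3 had 36.6, 17.5, 23.5 and 22.9 scaled counts in mutants, against 0, 0, 1.73 and 0 in WT. Its 98 reads against 2 gave a ratio of 51.2 (exact 95% counting interval 13.8 to 429; adjusted p = 0.000724, limma), with the filter passed only through mutants. The pair overlaps at its 3′ ends by 2250 exon bases, 53.6% of Hoxb3os and 52.9% of Hoxb3. Hoxb3os also overlaps exons of Hoxb2, and in all 76.2% of its exon bases lie in exons of other genes of the table. The ratio of Hoxb3os to Hoxb3 did not differ detectably (log2 difference 0.28, SE 0.55, adjusted p = 0.80, limma).

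Hoxb5os, which spans Hoxb5 and shares 14.4% of its exon bases with it, had 10.8, 11.1, 5.65 and 5.71 scaled counts in mutants 1, 2, 4 and 5, against 0 in each WT library. That is 33 reads against none, at least 11.5-fold higher, but too few to be tested. Hoxb5 itself had 81.9, 47.9, 23.5 and 38.9 scaled counts in mutants, against 0, 0.947, 0 and 0 in WT, and passed the test (187 reads against 1, adjusted p = 0.00025, limma), again having reached the filter only through mutants. At the Hoxd cluster the order was turned round. Hoxd3os1, which shares 12.1% of its exon bases with Hoxd3, some of them also in exons of Hoxd4, was the higher member per kilobase, and had 20.5, 19.3, 30.1 and 24 scaled counts in mutants, against 1.86, 0, 0.866 and 0 in WT. Its 93 reads against 3 gave a ratio of 32.4 (exact 95% counting interval 10.8 to 160; adjusted p = 0.000857, limma). Hoxd3 had 9.70, 5.53, 0.941 and 4.57 scaled counts in mutants, against 0 in each WT library, which is 20 reads against none and at least 6.97-fold higher, below the level tested.

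Hoxa11os reached the highest level of the Hox transcripts, in scaled counts and per kilobase, and its mutants were spread widely. It lies at chr6:52244393-52249799 (plus strand), covers the first exon of Hoxa11 and shares 800 exon bases with it, 26.0% of Hoxa11os and 35% of Hoxa11. Hoxa11os had 316, 82.9, 1275 and 594 scaled counts in mutants 1, 2, 4 and 5, against 15.8, 9.47, 2.6 and 3.55 in WT. Hoxa11 had 581, 137, 2364 and 1101 in the mutants, against 33.4, 17.1, 11.3 and 9.47 in WT. Both members were highest in mutant 4 and lowest among mutants in mutant 2. Hoxa11os rose by 5.69 on the log2 scale (SE 0.81, adjusted p = 0.00197, limma) and Hoxa11 by 5.33 (SE 0.78, adjusted p = 0.00221). Their ratio did not differ detectably (log2 difference 0.35, SE 0.35, adjusted p = 0.570).

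The order of the mutants in Hoxa11os and Hoxa11, 4 above 5 above 1 above 2, was that of the summed decidua markers, 44924.8, 24987.9, 16571.8 and 5383.5 scaled counts. Single markers did not all keep that order. Prl8a2, Cryab and Lum were higher in mutant 2 than in mutant 1, and Col1a1 was higher in mutant 1 than in mutant 5. Hoxa11 is also known from the uterine stroma. Of the 118 transcripts 9 (7.63%) showed this order, as did 7 of the 112 sense genes (6.25%) and 7.20% of all tested genes. The transcripts were Hoxa11os, Hoxd3os1, Wt1os, Emx2os, Foxl2os, Has2os, Zmiz1os1, Sp3os and Zfp335os. The sense genes were Hoxa11, Wt1, Gimap1, Kirrel3, Dnm3, Kank4 and Jun. Among the 1253 genes called higher, 204 (16.3%) did. Without mutants 4 and 5 the log2 fold changes were 4.48 for Hoxa11os (adjusted p = 0.0163) and 4.08 for Hoxa11 (adjusted p = 0.0137), both by limma; without mutant 2 they were 6.41 and 6.10, and without mutant 4 they were 5.10 and 4.73. The part of maternal tissue in these levels was not tested.

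Wt1, a zinc-finger factor of the urogenital ridge and epicardium, showed the same order. Wt1os had 3.23, 0, 57.4 and 32.0 scaled counts in mutants 1, 2, 4 and 5, against 2.78, 0.947, 1.73 and 0 in WT, so the groups overlapped, and its 92 reads against 6 were too few to be tested. Wt1 had 284, 48.8, 1728 and 821 scaled counts in mutants, against 34.3, 41.7, 2.6 and 4.74 in WT, and passed the test (log2 fold change 4.83, SE 1.17, adjusted p = 0.0232, limma). The call was lost without mutant 4 (4.09, adjusted p = 0.0570), mutant 5 (4.45, adjusted p = 0.0626), WT 4 (4.20, adjusted p = 0.0649) or WT 5 (adjusted p = 0.0674), and stood at 3.17 (adjusted p = 0.158) without both mutants 4 and 5; without mutant 2 it was 5.80. The pair shares no exon base, and its starts lie 19 bases apart in the window printed above.

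Emx2os, which overlaps the start of the homeobox gene Emx2, had 8.62, 1.84, 30.1 and 19.4 scaled counts in mutants 1, 2, 4 and 5, against 0.928, 0.947, 0 and 0 in WT. Its 59 reads against 2 gave a ratio of 30.9 (exact 95% counting interval 8.17 to 261) and lay below the level tested, while Emx2 did not pass (log2 fold change 1.99, adjusted p = 0.134, limma). Foxl2os had 12.9, 4.6, 35.8 and 35.4 scaled counts in the mutants, against 5.57, 3.79, 7.80 and 1.18 in WT. Foxl2, a forkhead factor of the ovary, had 4.31, 8.29, 78.1 and 52.6 in the mutants, against 0.928, 0, 0 and 0 in WT, also below the level tested. In both pairs mutants 4 and 5, with the highest decidua sums, carried the highest values. The plot by decidua sum sets Emx2os and the Hoxa11 and Wt1 pairs beside the Notum and Zeb2 pairs and Hoxb3os, which have another order.

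**Figure D4:**
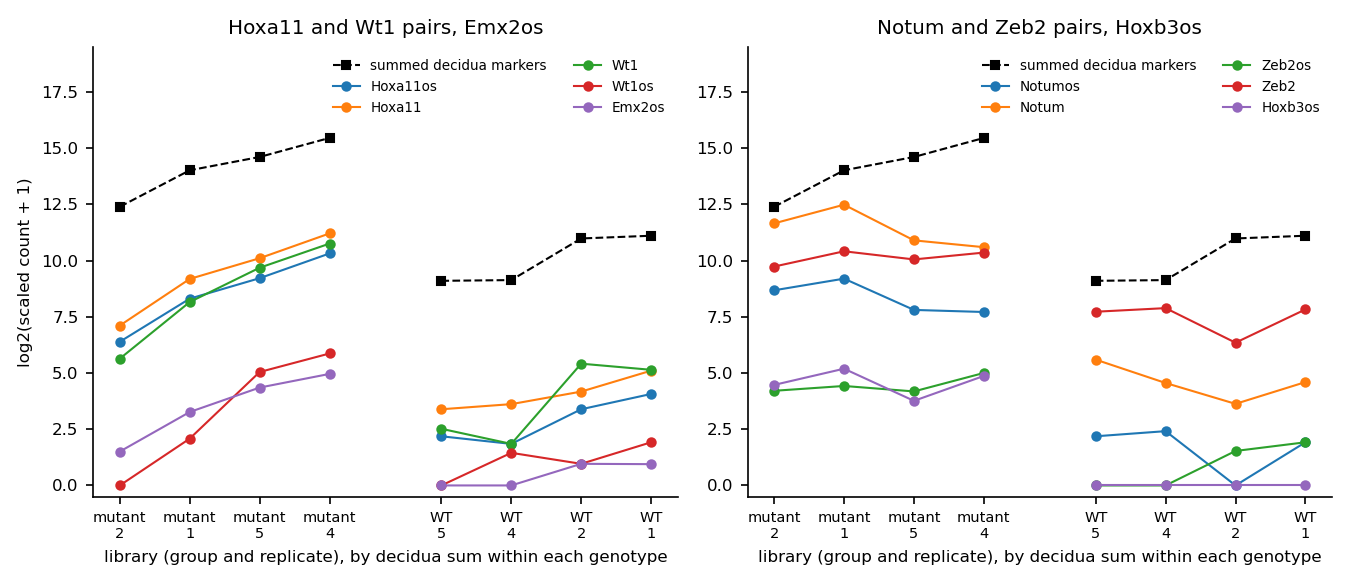
Level in each library, as log2(scaled count + 1), of the summed decidua markers (black squares, dashed) and of single genes (circles), with libraries ordered by decidua sum within each genotype, mutants left and WT right. Hoxa11os, Hoxa11, Wt1 and Emx2os climb with the decidua sum across the mutants (left panel), whereas Notumos was highest in mutant 1 at 586 scaled counts and lowest in mutant 4 at 209 (right panel).

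Zeb2 encodes a zinc-finger repressor of E-cadherin that acts in epithelial to mesenchymal transition. Zeb2os (chr2:45110707-45114087, plus strand) lies inside it and shares 653 exon bases, 32.8% of Zeb2os. Zeb2os had 20.5, 17.5, 31.1 and 17.1 scaled counts in mutants 1, 2, 4 and 5, against 2.78, 1.89, 0 and 0 in WT. Zeb2 had 1364, 851, 1309.5 and 1061 in the mutants, against 226, 80.5, 236 and 211 in WT, with the lowest value in WT 2, the library with the least T. Neither member overlapped between genotypes. Zeb2os rose by 3.59 on the log2 scale (SE 0.56, adjusted p = 0.00308, limma) and Zeb2 by 2.69 (SE 0.34, adjusted p = 0.000958), which was 2.33 without WT 2. Their ratio did not differ detectably (log2 difference 0.90, SE 0.67, adjusted p = 0.441) and took the other sign with a pseudocount of 5 (-0.56, adjusted p = 0.459). Even coverage of Zeb2 would place 37.5 scaled counts in the shared exons in mutants and 6.17 in WT, above the Zeb2os values of 21.5 ± 6.52 and 1.17 ± 1.40. Reads there may have been counted for either gene or dropped.

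Tbx3, a T-box factor, has a transcript on either side. Tbx3os2 (chr5:119685095-119691218, minus strand) is convergent with Tbx3 and shares no exon base with it. Tbx3os2 had 26.9, 35, 30.1 and 43.4 scaled counts in mutants 1, 2, 4 and 5, against 15.8, 10.4, 12.1 and 20.1 in WT. Tbx3 had 13197, 12250.5, 7798 and 9114 in the mutants, against 4658, 3835, 4232 and 3987 in WT. Both shifted upwards without overlap and by a similar amount, 1.18 for Tbx3os2 (SE 0.32, adjusted p = 0.0384, limma) and 1.31 for Tbx3 (SE 0.16, adjusted p = 0.000849). The Tbx3os2 call was lost on leaving out mutant 2, 4 or 5 or WT 1, 2 or 4, with adjusted p of 0.0662 to 0.103. Tbx3os1, which overlaps the start of Tbx3, had 22.6, 8.29, 21.7 and 17.1 scaled counts in mutants, against 6.49, 1.89, 0.866 and 7.10 in WT, and was too rare to be tested.

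Dnah2 encodes a dynein heavy chain of motile cilia. Dnah2os (chr11:69448548-69453676, plus strand), inside Dnah2, shares 312 exon bases, 36.3% of its length. Dnah2os had 57.1, 37.8, 40.5 and 24 scaled counts in mutants 1, 2, 4 and 5, against 8.35, 8.53, 10.4 and 10.7 in WT. Dnah2 had 533, 254, 137 and 234 in the mutants, against 59.4, 32.2, 67.6 and 50.9 in WT. Dnah2os rose by 1.91 (SE 0.34, adjusted p = 0.0061, limma) and Dnah2 by 2.32 (SE 0.40, adjusted p = 0.00519). Per kilobase Dnah2os was the higher of the pair, at 46.4 scaled counts in mutants and 11.0 in WT, against 19.4 and 3.51 for Dnah2. Erich2os, at the start of the glutamate-rich gene Erich2, had 10.8, 7.37, 12.2 and 13.7 scaled counts in mutants, against 1.86, 0, 1.73 and 1.18 in WT, without a test. Erich2 had 38.8, 51.6, 63.1 and 43.4 in the mutants, against 16.7, 7.58, 13.0 and 14.2 in WT, and rose by 1.88 (SE 0.33, adjusted p = 0.00568).

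Pcsk2os1 was the 1 transcript that fell, together with Pcsk2, a convertase of prohormones. The 5′ ends of the pair overlap, and Pcsk2os1 (chr2:143535476-143547837, minus strand) shares 5.84% of its exon bases. Pcsk2os1 had 17.2, 2.76, 2.82 and 1.14 scaled counts in mutants 1, 2, 4 and 5, against 46.4, 45.5, 30.3 and 40.2 in WT. Pcsk2 had 14, 0.921, 9.41 and 19.4 in the mutants, against 72.4, 26.5, 69.3 and 52.1 in WT. Both were below WT without overlap, but the low mutant was replicate 5 for the transcript and replicate 2 for the gene. Pcsk2os1 fell by 3.08 on the log2 scale (SE 0.62, adjusted p = 0.0105, limma) and by 3.71 without mutant 1. Pcsk2 fell by 2.57 (SE 0.72, adjusted p = 0.0402), and by 1.83 (adjusted p = 0.0273) without mutant 2. The Pcsk2 call was lost without mutant 4 or WT 1, 4 or 5 (adjusted p of 0.0735 to 0.105).

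Otx2 is the homeobox factor of epiblast and head, and Otx2os1 (chr14:48668708-48870683, plus strand) overlaps its start. Otx2os1 had 1.08, 0, 0 and 0 scaled counts in mutants 1, 2, 4 and 5, against 2.78, 2.84, 6.93 and 5.92 in WT. The 1 read against 19 gave a ratio of 0.055 (exact 95% counting interval 0.00132 to 0.346), below the level tested. Otx2 had 17.2, 247, 157 and 506 scaled counts in mutants, against 3809.7, 3420.5, 3522 and 3141 in WT, and fell by 4.65 (SE 0.84, adjusted p = 0.00619, limma). Mutant 1 was the lowest in Otx2, and without it the fall was 3.68 (adjusted p = 0.000338), and it fell by 5.28 without mutant 5. The 154 shared exon bases would carry 8.46 scaled counts in mutants and 127 in WT under even Otx2 coverage, so the few Otx2os1 reads lie below what Otx2 alone would place there. That comparison depends on whether reads in shared exons were counted, which the sources do not state.

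Six3os1, beside the forebrain factor Six3, had 2.15, 0, 1.88 and 0 scaled counts in mutants 1, 2, 4 and 5, against 29.7, 7.58, 21.7 and 9.47 in WT. The groups did not overlap, at 4 reads against 73, but the level was below that tested. Six3 had 1.08, 11.1, 10.4 and 25.1 in the mutants, against 36.2, 71.0, 28.6 and 34.3 in WT, and missed the threshold (log2 fold change -2.14, adjusted p = 0.0757, limma). Atcayos, at the 3′ end of the neuronal gene Atcay, had 0, 0, 1.88 and 0 scaled counts in mutants, against 0, 0.947, 7.80 and 4.74 in WT, 2 reads against 14. Atcay had 9.70, 0.921, 0 and 5.71 in the mutants, against 107, 58.7, 93.6 and 76.9 in WT, and fell by 4.6 (SE 0.71, adjusted p = 0.00285), and fell by 4.01 without mutant 4; it reached the filter only through WT. Nr6a1, the orphan receptor that silences pluripotency genes, fell by 0.62 (adjusted p = 0.0192), while Nr6a1os, inside it, had 7 reads in mutants against 22 in WT. The Nr6a1 call was lost without WT 1, 4 or 5 (adjusted p of 0.0555 to 0.0582).

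The transcript to sense ratio passed the test in 7 of 54 pairs, beside 11.3% of 4171 opposite-strand pairs. In 6 of these 7 the pair shares no exon base, as do 43 of all 118 pairs, tested or not. The share among the 54 tested pairs is not given here. Among the pairs with both members past the threshold, all but Tbx3os2 and Tbx3 share exon bases. Lhx1, a LIM-homeobox factor of the anterior streak and head organiser, had 234, 897, 805 and 1719 scaled counts in mutants 1, 2, 4 and 5, against 3882, 1549, 3441 and 2900.3 in WT. Lhx1os (chr11:84525660-84535831, plus strand), whose start lies 125 bases from that of Lhx1, had 25.9, 31.3, 31.1 and 41.1 in the mutants, against 50.1, 20.8, 29.5 and 39.1 in WT. The transcript overlapped widely between genotypes (log2 fold change -0.05, SE 0.33, adjusted p = 0.938, limma) while the gene fell by 1.92 (SE 0.54, adjusted p = 0.0417), though mutant 5 exceeded WT 2. The log2 ratio of Lhx1os to Lhx1 was higher in mutants by 1.87 (SE 0.45, adjusted p = 0.025), in all 4 mutants above all 4 WT (exact permutation p = 0.0286, two-sided, the smallest that 4 against 4 allows). Leaving out WT 1, 4 or 5 took this adjusted p to 0.0622, 0.0753 and 0.0537. The Lhx1 call itself was lost without mutant 2 or 4 or WT 1, 4 or 5 (adjusted p of 0.0588 to 0.109).

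**Figure D5:**
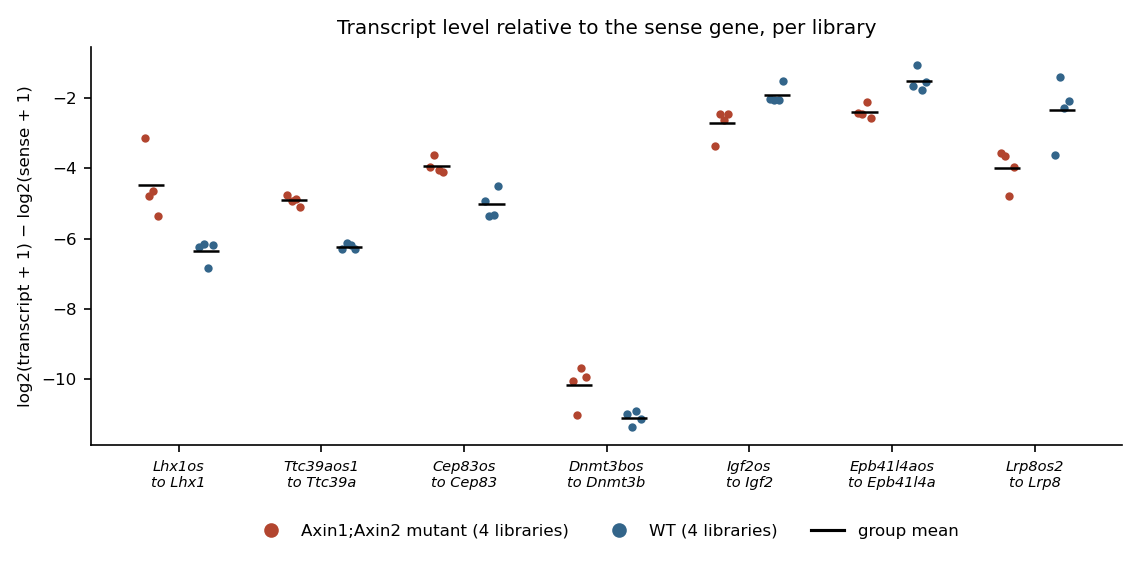
Log2 ratio of transcript to sense gene, log2(transcript + 1) minus log2(sense + 1), in each library for the 7 pairs whose ratio passed the test, with mutant libraries in red left of WT libraries in blue and bars at the group means (n = 4 each). The first 4 pairs shift upwards in mutants, by 0.93 to 1.87, and the last 3 downwards, by 0.80 to 1.65; in the Dnmt3b and Lrp8 pairs the genotypes overlap.

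Ttc39aos1 and Cep83os rose while their divergent partners did not pass the test. Ttc39aos1 (chr4:109403794-109406155, minus strand) had 29.1, 21.2, 20.7 and 19.4 scaled counts in mutants 1, 2, 4 and 5, against 5.57, 8.53, 6.93 and 4.74 in WT. Ttc39a, a tetratricopeptide-repeat gene that starts 468 bases away, had 806, 667, 628 and 703 in the mutants, against 512, 662, 576 and 449.8 in WT. The transcript thus rose in all 4 mutants, whereas the gene overlapped. Ttc39aos1 rose by 1.68 (SE 0.34, adjusted p = 0.0111, limma), Ttc39a had a log2 fold change of 0.36 (SE 0.14, adjusted p = 0.125), and their ratio was higher by 1.32 (SE 0.30, adjusted p = 0.0213). The ratio missed the threshold without WT 1, 4 or 5 (adjusted p of 0.0509 to 0.0563). Ttc39aos1 reached the filter only through mutant libraries, so the selection favoured a higher ratio in mutants as well as a higher transcript.

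Cep83 encodes a centriolar protein needed for primary cilia, and Cep83os (chr10:94671025-94688576, minus strand) starts 78 bases from it in GENCODE M21. Cep83os had 73.3, 75.5, 71.5 and 65.1 scaled counts in mutants 1, 2, 4 and 5, against 35.3, 31.3, 26.0 and 53.3 in WT. Cep83 had 1143, 943, 1201 and 1143 in the mutants, against 1109, 1314, 1073 and 1216 in WT. The transcript was higher in each mutant than in any WT embryo and the gene overlapped throughout. Cep83os rose by 1.0 (SE 0.27, adjusted p = 0.0357, limma), against -0.09 for Cep83 (SE 0.11, adjusted p = 0.626), and the ratio was higher by 1.09 (SE 0.28, adjusted p = 0.0334). Both the Cep83os and the ratio calls were lost on leaving out any 1 library except WT 5 (adjusted p of 0.0666 to 0.0950 and of 0.0579 to 0.0883).

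Dnmt3b, the de novo DNA methyltransferase of the epiblast, had 22775, 28437, 21508 and 28739 scaled counts in mutants 1, 2, 4 and 5, against 87151, 84382, 90080.4 and 78138 in WT. Dnmt3bos (chr2:153648690-153650286, minus strand), which overlaps the span of Dnmt3b near its start but none of its exons, had 20.5, 12.9, 25.4 and 28.6 in the mutants, against 41.8, 31.3, 45.9 and 34.3 in WT. Both lay below WT without overlap, the gene by more. The epiblast markers were lower in mutants as well (sums above), and their part in the fall of Dnmt3b and Otx2 was not tested. Dnmt3b fell by 1.75 (SE 0.10, adjusted p = 2.79e-05, limma), Dnmt3bos had a log2 fold change of -0.82 (SE 0.32, adjusted p = 0.125), and the ratio was higher in mutants by 0.93 (SE 0.26, adjusted p = 0.0468; exact permutation p = 0.0857). The ratio call was lost without mutant 1, 4 or 5 or any 1 WT library (adjusted p of 0.0810 to 0.108).

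In the other direction, Igf2, Epb41l4a and Lrp8 rose while their transcripts did not pass. Igf2, an imprinted growth factor, had 5245, 4314, 2854 and 3146 scaled counts in mutants 1, 2, 4 and 5, against 2314, 2418, 2204 and 2263 in WT. Igf2os, which shares 1.84% of its exon bases, had 512, 793, 467 and 578 in the mutants, against 563, 587, 525 and 798 in WT. Every mutant was above every WT embryo in Igf2, which rose by 0.72 (SE 0.17, adjusted p = 0.0231, limma) while Igf2os overlapped (log2 fold change -0.08, SE 0.19, adjusted p = 0.814). The ratio changed by -0.80 (SE 0.22, adjusted p = 0.0468; exact permutation p = 0.0286). Leaving out any 1 library except mutant 2 ended the ratio call (adjusted p of 0.0591 to 0.115), and the Igf2 call was lost without mutant 2 or WT 1, 4 or 5 (adjusted p of 0.0514 to 0.0634).

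Epb41l4a, a band 4.1 family gene, had 1047, 1153, 1195 and 1168 scaled counts in mutants 1, 2, 4 and 5, against 872, 592, 813 and 807 in WT. Epb41l4aos, convergent with it and sharing no exon base, had 195, 210.0, 277 and 197 in the mutants, against 278, 283, 236 and 276 in WT. The gene rose by 0.58 (SE 0.13, adjusted p = 0.0159, limma), the transcript had a log2 fold change of -0.30 (SE 0.16, adjusted p = 0.251), and the ratio changed by -0.88 (SE 0.21, adjusted p = 0.0279; exact permutation p = 0.0286). All mutant ratios lay below all WT ratios, and leaving out mutant 1, 2 or 5 or WT 1, 2 or 5 moved the adjusted p to between 0.0526 and 0.0738.

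Lrp8, a receptor for reelin and apolipoprotein E, had 1896, 1461, 1249 and 1466 scaled counts in mutants 1, 2, 4 and 5, against 875, 559, 611 and 723 in WT. Lrp8os2 (chr4:107806033-107823022, minus strand), inside Lrp8 with no shared exon base, had 159, 115, 44.2 and 92.6 in the mutants, against 70.5, 212, 125 and 172 in WT. Lrp8 rose by 1.14 (SE 0.17, adjusted p = 0.00228, limma), while Lrp8os2 overlapped between genotypes (log2 fold change -0.52, SE 0.45, adjusted p = 0.490). The ratio changed by -1.65 (SE 0.46, adjusted p = 0.0457; exact permutation p = 0.0571), and only WT 1 could be left out without losing that call (adjusted p of 0.0561 to 0.107 without any other library). Lrp8os3, divergent from Lrp8, had 13 reads in mutants against 7 in WT and was not tested.

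Several other sense genes changed beside a transcript that did not pass or was too rare to be tested. Lpp, a focal adhesion protein, rose by 1.12 (adjusted p = 0.000817) and Chd3, a chromatin remodeller, by 0.84 (adjusted p = 0.008), both by limma, with log2 fold changes of 0.46 for Lppos and 0.08 for Chd3os (adjusted p = 0.279 and 0.852). The difference within the pair did not pass for Lppos (ratio -0.66, adjusted p = 0.187) or Chd3os (ratio -0.76, adjusted p = 0.0686). Akna, Zmiz1, Pitpnm2, Nckap5l and Ppp1r18 rose by 0.52 to 0.93, and each of their transcripts (Aknaos, Zmiz1os1, Pitpnm2os1, Pitpnm2os2, Nckap5los and Ppp1r18os) had 21 reads or fewer in a genotype. Of these 5, Zmiz1 alone kept its call when any 1 library was left out.

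The 4 transcripts with the highest scaled counts, not corrected for length, did not pass the test. Slc7a6os, which encodes a protein, had 1330.5 ± 83.1 scaled counts in mutants and 1241 ± 94.3 in WT (SD, n = 4 each; log2 fold change 0.10, adjusted p = 0.486, limma). Brip1os, near the DNA repair helicase gene Brip1, had 1064 ± 43.0 and 897 ± 78.9 (log2 fold change 0.25, adjusted p = 0.102). Of its exon bases 20.2% lie in exons of Ints2 and Med13. Wdr83os, also protein-coding, had 801 ± 45.2 and 672 ± 38.1 (log2 fold change 0.25, adjusted p = 0.0961), and 52.3% of its exon bases lie in exons of Wdr83. In both Brip1os and Wdr83os every mutant exceeded every WT embryo although the test was not passed. Rab10os had 625 ± 70.0 in mutants and 738 ± 60.7 in WT (log2 fold change -0.24, adjusted p = 0.200).

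Among the 61 transcripts too rare to be tested, group means were 0.269 to 23.2 scaled counts in mutants and 0 to 17.1 in WT. In 7 of them all mutants exceeded all WT embryos, and in 3 all mutants lay below. Of all 4350 genes not tested, 5.01% lay above and 3.49% below in this way. Those above were Gimap1os, Kirrel3os, Hoxb5os, Erich2os, Has2os, Emx2os and Tbx3os1, and those below were Nr6a1os, Six3os1 and Otx2os1. Kirrel3os had 24 reads in mutants and none in WT, at least 8.37-fold more. Has2os, beside the hyaluronan synthase gene Has2, had 42 reads in mutants against 31 in WT, and Has2 itself did not change detectably (log2 fold change -0.06, adjusted p = 0.843, limma).

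Among 22 other long noncoding RNAs, some beside developmental genes and others imprinted or widely expressed, 18 were in the table, 17 were tested, 3 rose and 2 fell, beside 15.6% of all genes called, with a median log2 fold change of -0.04 beside -0.00 for all genes. Fendrr, divergent from the lateral mesoderm factor gene Foxf1, had 435 ± 278 scaled counts in mutants and 2.93 ± 2.31 in WT (log2 fold change 6.89, SE 0.62, adjusted p = 0.000209, limma). Hotairm1 and Haglr, from the Hoxa and Hoxd clusters, rose by 3.22 (SE 0.38, adjusted p = 0.000724) and 3.35 (SE 0.52, adjusted p = 0.00303), alongside Hoxa11os and Hoxd3os1. Fendrr and Hotairm1 reached the filter only through mutant libraries, so for both a difference was built into the selection. Miat fell by 4.61 (SE 0.90, adjusted p = 0.00894) and Platr10, a transcript of pluripotent cells, fell by 4.93 (SE 0.36, adjusted p = 8.15e-05). Of symbols ending in as, 2 have their stem in the table, Znrd1as and, by spelling alone, Hras, and neither passed the test.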

How the data were processed

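RNA of whole embryos was amplified with the SMART-Seq v4 kit, which does not keep strand, per the labels' protocols. Tools named in the submitters' processing notes are cutadapt 1.6, STAR 2.5.0a, HTSeq 0.5.3 and DESeq with the mm10 build; neither the strand option of the counting nor the annotation is given in the sources used here. The authors' deposited values are a signal, read counts per gene after division by a size factor for each library. Each column held whole multiples of 1 step (100% of values within 0.01 of a whole read), and dividing by it gave the reads; edgeR on these called 2430 genes and DESeq2 3438, against 2431 with limma. Without molecular identifiers, counting intervals cover no more than counting error.

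Genotypes were compared with limma 3.58.1 (R 4.3.3, trended prior, two-sided) on log2(scaled count + 1), for genes with at least 10 in at least 4 libraries, adjusted by Benjamini-Hochberg over 15600 genes. Fold changes on this scale understate low genes. The ratio test used the difference of log2 values within a library over 4171 opposite-strand pairs with spans overlapping or within 5000 bases. Single ratios were also tested by exact permutation. Arrangements come from GENCODE M21, by ID; 19878 IDs matched, but the authors may have counted with another release. On simulated counts the fit called 74.5% of genes changed 2-fold and 100% of those changed 4-fold. Of its calls 7.57% fell on unchanged genes (15857 genes tested). The ratio test called 61.8% of simulated pairs that changed. The simulation gave every gene the same dispersion, so power in these data can be lower. Here Prl8a2, at a log2 fold change of 2.64, did not pass (adjusted p = 0.299, limma).

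Every pair with a member past the threshold was named, with values in each library for the 14 pairs of largest change, those with a ratio past the threshold and the Hox and Otx2 pairs. Members, lists and alternatives were chosen with earlier results of these data known. Emx2os, Foxl2os, Six3os1, Erich2os, Has2os and Kirrel3os were named after their values were seen. Replicates differed beyond sampling noise (chi-square per degree of freedom 17.3 to 75.3). Deviations of same-numbered libraries correlated between -0.193 and -0.0357, and those of other-numbered libraries between -0.223 and 0.237. With this scatter the check cannot show whether replicate numbers pair the embryos, and the labels do not say. Alternatives were pseudocounts 0.5 and 5, median centring, no filter, a mean filter of 50, each library left out, mutants 4 and 5 left out, the 6 libraries with Y-linked transcripts, the replicate number as a block, edgeR 4.0.16 and DESeq2 1.42.0.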

Additional observations from a re-analysis of the deposited data

Results flagged for a closer look

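In 76 groups of 4 libraries the highest or lowest value was set against the range of its group, and 7 (9.21%) stood apart. The cutoff would pass about 1 in 20 groups of normally distributed values. That rate does not hold for counts near 0, where a single value beside values of 0 always stands apart. Pcsk2os1 had 17.2 scaled counts in mutant 1, against 1.14 to 2.82 in the other mutants. Otx2os1 had 1.08 in mutant 1 and Atcayos 1.88 in mutant 4, with 0 in the other mutants. Zeb2 had 80.5 in WT 2, against 211 to 236 in the other WT libraries. Hoxb3 had 1.73 in WT 4 and Hoxb5 0.947 in WT 2, with 0 in the other WT libraries. Epb41l4aos had 236 in WT 4, against 276 to 283 in the other WT libraries. Of these, the values of Otx2os1, Atcayos, Hoxb3 and Hoxb5 come from 1 or 2 reads.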

How the results depend on the processing

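Of 42 named results past the threshold, 15 kept their call under every alternative run, 27 lost it under at least 1 and none changed direction. The 15 were Notumos, Notum, Hoxa11os, Hoxa11, Hoxb3os, Hoxb3, Hoxb5, Hoxd3os1, Zeb2os, Zeb2, Tbx3, Lrp8, Lpp, Atcay and Dnmt3b. Of these, Notumos, Hoxb3os, Hoxb3, Hoxb5, Hoxd3os1, Zeb2os and Atcay reached the filter only through the genotype in which they were high, which favours their calls. The 10 transcripts past the threshold became 16 with no filter, 2 with a mean of at least 50, 6 without mutants 4 and 5, 5 among the 6 libraries with Y-linked transcripts, and 8 to 10 with 1 library left out. The 25 sense genes became 12 among the Y-linked libraries and 18 to 26 with 1 left out. The 7 ratios became 1 without mutants 4 and 5, none among the Y-linked libraries (limma; 9 at an unadjusted p under 0.05; not run with edgeR or DESeq2) and 1 to 4 with 1 library left out. Over all genes the 2431 calls became 1430 without mutants 4 and 5, 1021 among the Y-linked libraries and 1600 to 2376 with 1 left out. These fits use fewer libraries. With pseudocount 5 the log2 fold changes of the rare transcripts shrank, to 2.49 for Hoxb3os, 2.32 for Hoxd3os1 and 2.10 for Zeb2os. DESeq2 called 12 transcripts (22.1% of all genes) and edgeR 10 (15.6%).

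The replicate number as a block left 7 transcripts, 21 sense genes and 2 ratios past the threshold. The labels do not say whether the numbers pair embryos. Among the Y-linked libraries Dnah2os (adjusted p = 0.0505) and Otx2 (adjusted p = 0.0605) missed the threshold, and Pcsk2os1 did so there (adjusted p = 0.0978) and without mutants 4 and 5 (adjusted p = 0.0689).

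Values near 0 that changed sign were those of Chd3os (-0.0036 with median centring, -0.0077 without mutants 4 and 5, -0.033 to 0.26 with 1 library left out), Lrp8os2 (0.017 without mutants 4 and 5), Igf2os (0.062 without mutants 4 and 5, 0.081 among the Y-linked libraries, -0.24 to 0.044 with 1 left out), Lhx1os (-0.27 to 0.14 with 1 left out) and Cep83 (0.016 among the Y-linked libraries), none past the threshold; the cause was not tested. The low depth of most transcripts limits what can be seen: 50 of the 118 had under 10 scaled counts in the higher genotype.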
